A study of Mus musculus with 2 samples.

Results

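Solute carriers are the membrane proteins that move amino acids, sugars, ions, metals, vitamins and organic acids across membranes, and they are numbered by family. The genes described here were those of families SLC1 to SLC24 that were matched by symbol in the array's annotation, with Slc18a2 left out. They were 176 genes on 326 probe sets, of 18193 genes with a probe set of their own. The symbol pattern also took in 6 genes that are not carriers themselves, among them Slc9a3r1 and Slc9a3r2, which encode scaffold proteins, and Slc4a1ap, Slc7a6os, Slc6a19os and Slc2a4rg-ps.

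The cells were G1E, a mouse erythroid progenitor line without GATA-1, carrying ER-GATA-1(V205G), a GATA-1 mutant that cannot bind its cofactor FOG-1 well, fused to an estrogen-responsive domain so that estradiol activates it. Both arrays came from cells with this fusion: 1 array from cells before treatment (0 h) and 1 array from cells after 24 h with 1 µM estradiol. The design asks which transcripts change when a GATA-1 form defective in FOG-1 binding becomes active. Neither untreated cells kept for 24 h nor cells lacking the fusion were analysed here, so the activated mutant, estradiol and time in culture cannot be told apart. With 1 array per condition no difference has a replicate check, and no p-value or SD between cultures is given.

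Signals are linear brightness values per probe set. A floor of 95.2, the 50th percentile of all signals, separated probe sets called measured, at or above it on both arrays, from those with a bound or with no ratio. Ratios are log2 of estradiol over untreated for a gene's brightest probe set, and probe sets with different brightness are not compared with each other in level. Probe sets of the same gene differed with an SD of 0.25 on the log2 scale over 4586 genes, so 2 SD correspond to 1.42-fold. The 2 SD limit was 0.60 for dim genes, 0.50 for genes of middle signal and 0.40 for bright genes, by tertile of signal, and it covers probe noise, not differences between cultures. Of the erythroid markers 10 of 10 on the array were measured. Alas2, the enzyme that starts heme synthesis in erythroid cells, went from 283 to 3430, a log2 ratio of 3.60, and the other 9 were short of 2-fold, from -0.56 for Tal1 to 0.62 for Klf1 and 0.86 for Slc4a1, itself a solute carrier gene. The mast cell and basophil markers shifted in sum from 9470 to 6165 over 12 genes, of which 5 were measured. Cpa3 (6616 to 1146) and Ms4a2 (2093 to 791) were lower and Tpsab1 (140 to 3418) was higher. Mcpt2 and Cma1 were short of 2-fold at 0.52 and 0.19. Fcer1a went from 144 to 47.3, Hdc from 3.80 to 152 and Tpsb2 from 47.1 to 100, each below the floor on 1 array. Mcpt1, Mcpt4, Mcpt8 and Prg2 were below the floor on both arrays. Of the megakaryocyte, neutrophil and monocyte, and lymphoid markers 3, 1 and 2 were measured, none of them past 2-fold. The part of these marker changes in the values below was not tested. In a culture measured in bulk, fewer cells of a type and less RNA per cell cannot be told apart.

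Carriers work in sets. Several amino acid exchangers of the SLC7 family are light chains that need the heavy chain SLC3A2 to reach the membrane. Glucose enters through SLC2 facilitators, and lactate and other monocarboxylates pass through SLC16 proteins. Potassium and chloride leave together through SLC12 cotransporters, which set cell volume in red cells. In maturing red cells the membrane comes to be dominated by the anion exchanger band 3, the product of Slc4a1, and glycine taken up from outside is the substrate from which heme synthesis starts.

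Fewer of these genes gave a signal than genes in general, and those that did included a few that differed by at least 2-fold between the arrays. On both arrays 76 of the 176 were measured (43.2%), against 56.3% of all genes. Another 13 reached the floor on 1 array and 87 on neither, for their brightest probe set. Of the measured genes 26 had a mean signal under 2-fold the floor. Such dim signals were not backed by detection calls here and do not by themselves show expression.

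Of the 76 measured genes, 5 differed by at least 2-fold, which is 6.58% where 3.14% of all 10240 measured genes did. Slc7a6, Slc12a4 and Slc16a6 were higher after estradiol (3.95%, against 2.04% of all genes), and Slc2a3 and Slc9a3r1 were lower (2.63%, against 1.1%). Slc9a3r1 is counted by its symbol and is not a carrier. Of the 71 measured genes that are carriers themselves, 3 were higher and 1, Slc2a3, was lower. Over all genes 209 were higher and 113 lower, but with the arrays set to a common median 160 were higher and 161 lower. With no floor and 16 added to each signal, 6.82% of all 176 solute carrier genes and 6.55% of all genes differed by at least 2-fold, so the share was then close to that of all genes. At the 2 SD limit 10 of the 76 were higher, 13.2% against 8.62% of all genes, and 4 were lower, 5.26% against 7.23%. The median log2 ratio was 0.13 for the 76 genes and 0.00 for all measured genes, and 47 of 76 lay above 0 (61.8%, against 50.1%). Their middle 50% ran from -0.14 to 0.32, against -0.20 to 0.22 for all genes, and 64 of them (84.2%, against 88.0%) lay within 1.5-fold. Over probe sets, 10 of 111 differed by at least 2-fold (9.01%, against 3.04% of all measured probe sets). Of these 6 were at least 2-fold higher (5.41%, against 2.03%) and 4 were at least 2-fold lower (3.6%, against 1.01%). They include 3 probe sets of Slc9a3r1 and 2 of Slc7a6. Probe sets of the same gene on the same arrays are not independent, so these shares partly recount the genes above.

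**Figure D1:**
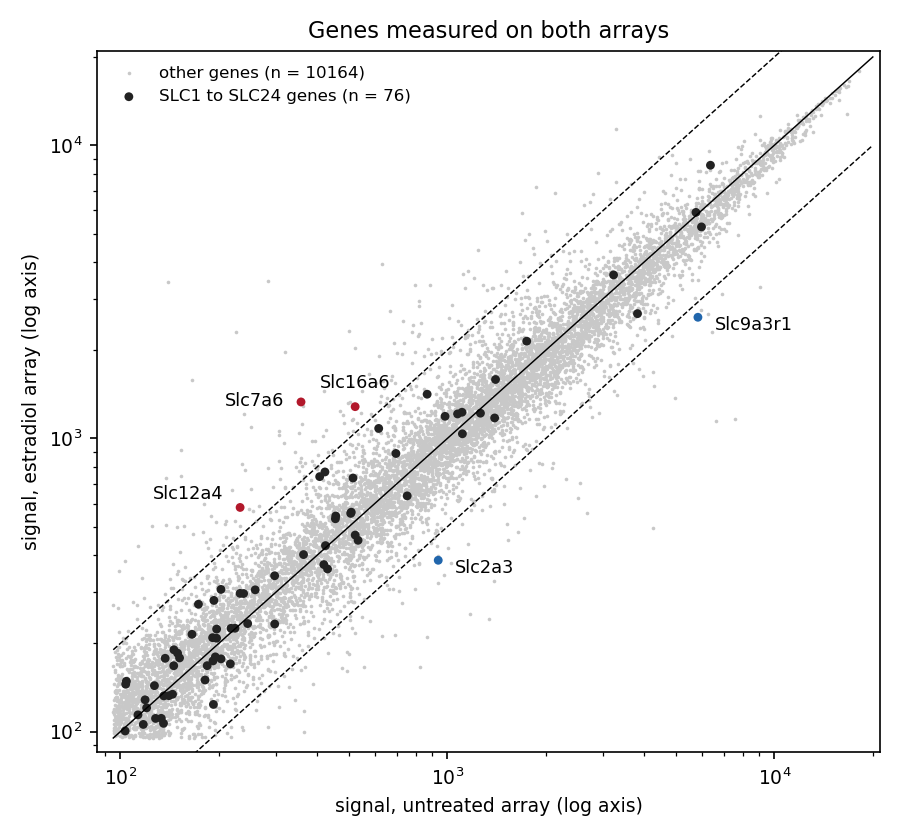
Signal of each gene measured on both arrays, untreated on the horizontal axis and estradiol on the vertical axis, both logarithmic. Grey points are other genes, coloured points the 76 solute carrier genes, the solid line marks equal signal and the dashed lines 2-fold. The 3 red points above the upper dashed line are Slc7a6, Slc12a4 and Slc16a6, and the 2 blue points below the lower one are Slc2a3 and Slc9a3r1.

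Slc7a6 had the largest difference of the 76. It encodes y+LAT2, a light chain that exchanges cationic for neutral amino acids. Its brightest probe set went from 357 untreated to 1332 with estradiol, which is 3.73-fold or a log2 ratio of 1.90. A second probe set went from 282 to 1315, a log2 ratio of 2.22. Both probe sets of the gene thus gave more than 3-fold, and the ratio ranged from 1.79 to 2.06 over the alternatives of scaling, floor and probe set choice.

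The other amino acid exchange genes measured with it differed less and went both ways. Slc3a2, the shared heavy chain, read 5758 and 5904, a log2 ratio of 0.04. Slc7a5, the light chain LAT1 that carries large neutral amino acids such as leucine, read 6376 and 8547, a log2 ratio of 0.42 that lies just past its 2 SD limit of 0.40. Slc7a8, the light chain LAT2, read 3814 and 2665, a log2 ratio of -0.52. Among light chains that pair with SLC3A2, Slc7a6 was therefore higher past 2-fold, Slc7a5 only just past its limit, and Slc7a8 lower. The heavy chain stayed within its limit. Slc7a5 and Slc7a8 each have 1 probe set. With a common median Slc7a5 had 0.31, under 0.40, and Slc7a8 had -0.63. Slc7a11, the cystine and glutamate exchanger subunit that is a known target of ATF4, read 95.6 and 46.9, at and below the floor, which leaves only a bound near 0. Slc7a10 read 128 and 111, close to the floor, and Slc7a7 was below it on both arrays at 65.5 and 70.7.

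Carriers of single cationic or neutral amino acids outside that set stayed within their limits on their brightest probe sets. Slc7a1, the cationic amino acid transporter CAT1, read 3223 and 3612, a log2 ratio of 0.16, with 0.03 and 0.41 on its other probe sets. Slc1a5, the glutamine carrier ASCT2, went from 533 to 450 (log2 ratio -0.25), while its dimmer probe set gave 0.03. Slc1a4, the related carrier ASCT1, had log2 ratios from -0.27 to 0.07 over 3 probe sets. Of the 25 genes of SLC1, SLC3 and SLC7, 12 were measured, 1 was at least 2-fold higher and none was at least 2-fold lower, with a median of 0.09. These counts include Slc7a6os by its symbol. Slc7a4, a relative of CAT1, is the member of this group whose probe sets differed most, at 0.14 and -0.59.

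Slc6a9, the glycine transporter GlyT1, was higher on both probe sets. It read 617 and 1082, a log2 ratio of 0.81, and 132 and 371 on the dimmer probe set, a log2 ratio of 1.49. The brighter probe set was thus short of 2-fold and the dimmer past it, and the median over both was 1.15. The 5 other measured SLC6 genes lay between -0.35 and 0.15 and none passed its limit. Slc6a8, the creatine transporter, had 0.29 on a dimmer probe set but -0.17 on its brightest, from 419 to 372. Slc6a17, Slc6a19 and Slc6a21 were dim, with signals from 107 to 297 and ratios from -0.35 to -0.34.

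Slc12a4 and Slc16a6 had the next largest ratios, with Slc16a6 above Slc12a4 under quantile normalization (1.28 and 1.25) and loess (1.31 and 1.27). Slc12a4 encodes KCC1, the potassium and chloride cotransporter of red cells. The single probe set for it went from 232 to 582, which is 2.50-fold or a log2 ratio of 1.32. No second probe set checks it, and with the floor at the 70th percentile the untreated signal fell below the floor and left a bound of 0.87. The 3 other measured SLC12 genes, Slc12a2 (NKCC1), Slc12a5 (KCC2) and Slc12a9, had log2 ratios of 0.00, 0.13 and 0.20. Slc12a2 read 120 and 121, and Slc12a7 (KCC4) 108 and 94.2, all near the floor.

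Slc12a4 and Slc7a6 lie near each other on mouse chromosome 8 in the RefSeq gene order of GRCm38.p6, a proximity noticed after their values were seen. RefSeq lists 10 genes between them, of which 4 were measured. None of these 4 was at least 2-fold higher or lower: Nfatc3 had a log2 ratio of -0.22, Ddx28 0.01, Dus2 0.31 and the noncoding 1810019D21Rik 0.59. Pla2g15, which directly precedes Slc7a6, went from 58.1, below the floor, to 124, a bound of 0.39. Slc7a6os, the next gene after Slc7a6 and not overlapping it in RefSeq, had a log2 ratio of 0.31 (238 and 296) on its brighter probe set. The dimmer one rested at 76.6 untreated, under the floor, and reached 295, a bound of 1.63. The large ratios were thus those of Slc12a4, of Slc7a6 and of the dimmer Slc7a6os probe set, and the measured genes between stayed under 2-fold.

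The 250 bases upstream of the transcript starts of these genes, and of Slc9a3r1 for contrast in direction, are shown because GATA factors bind short motifs that can be looked for in them. The sequences are those of RefSeq on GRCm38.p6, written 5′ to 3′ on the gene's strand, with CG dinucleotides in capitals. Slc7a6 lies on the plus strand at chr8:106168604-106168853 (the first of 2 listed starts), Slc12a4 on the minus strand at chr8:105966116-105966365 and Slc9a3r1 on the plus strand at chr11:115163091-115163340.
Slc7a6: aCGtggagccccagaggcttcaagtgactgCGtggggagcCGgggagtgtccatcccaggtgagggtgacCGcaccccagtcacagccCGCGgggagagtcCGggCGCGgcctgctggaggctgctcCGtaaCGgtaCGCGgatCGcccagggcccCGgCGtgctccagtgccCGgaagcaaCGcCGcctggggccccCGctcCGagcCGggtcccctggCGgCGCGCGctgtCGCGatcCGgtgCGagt
Slc12a4: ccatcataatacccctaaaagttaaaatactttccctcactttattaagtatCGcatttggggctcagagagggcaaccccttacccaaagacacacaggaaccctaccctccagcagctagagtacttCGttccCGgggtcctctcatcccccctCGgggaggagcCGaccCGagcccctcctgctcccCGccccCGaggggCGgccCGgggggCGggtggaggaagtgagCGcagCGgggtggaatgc
Slc9a3r1: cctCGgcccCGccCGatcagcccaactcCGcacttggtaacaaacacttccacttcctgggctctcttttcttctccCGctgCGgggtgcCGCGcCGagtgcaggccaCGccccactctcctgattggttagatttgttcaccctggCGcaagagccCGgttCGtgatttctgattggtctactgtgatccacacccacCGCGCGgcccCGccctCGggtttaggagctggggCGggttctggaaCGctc
The GATA motif was searched on both strands as AGATAA, with the variant ending AGATAG, with the variant start TGATAA and with both changes as TGATAG. None of these windows held it, nor the amino acid response motif TGATGNAAN. At least 1 of the 4 letter forms of the GATA motif was present in 26.5% of 32851 such windows of all genes, in 27.9% of 183 windows of the solute carrier genes, and in 14.3% of 70 windows of those that were measured. The amino acid response motif was in 3.44%, 3.83% and 2.86% of them. The windows shown are rich in CG: Slc7a6 holds 30 and a GC content of 74.0%, Slc12a4 13 and 60.8%, and Slc9a3r1 20 and 62.8%, against a median of 6 and 52.4% over all windows and of 14 and 61.8% over those of measured solute carrier genes. Windows of Slc2a3 and Slc16a6 were not analysed here. A match is no evidence of binding, and no match says only that these letters are absent from these windows.

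Slc16a6, a monocarboxylate family member known as MCT7, was the last of the 3 genes higher by at least 2-fold. The single probe set for it went from 523 to 1284, which is 2.46-fold or a log2 ratio of 1.30, and it stayed past 2-fold in all 9 alternatives of scaling, floor and probe set choice. Slc16a1, which encodes the lactate carrier MCT1, read 5987 and 5267, a log2 ratio of -0.18. Slc16a10, the aromatic amino acid carrier TAT1, read 1263 and 1220 (log2 ratio -0.05), and its 3 dimmer probe sets gave 0.26 to 0.44. Slc16a6 was thus the 1 member of this family past 2-fold, and the other 7 measured SLC16 genes lay between -0.18 and 0.35. Slc16a3, the lactate exporter MCT4, was below the floor at 75.5 and 52.3. Slc13a2, a citrate and succinate carrier of kidney and gut, went from 231 to 32.0, below the floor, which gives at least 2.43-fold lower on its single probe set. It was the 1 of 13 solute carrier genes with a bound whose bound reached 2-fold (7.69%, against 6.22% of all genes with a bound), and with the floor at the 70th percentile no such bound remained.

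Glucose carriers went in opposite directions. Slc2a3, the facilitator GLUT3, read 938 untreated and 384 with estradiol, a log2 ratio of -1.29 or 2.44-fold lower. Its second measured probe set went from 306 to 156, a log2 ratio of -0.97. The 2 further probe sets were below the floor on both arrays and also read lower, from 77.5 to 13.8 and from 65.7 to 15.8. The 2 measured probe sets carry suffixes that mark probes shared with other transcripts, and when probe sets without such a suffix were taken first, Slc2a3 was below the floor and had no ratio. Slc2a1, the facilitator GLUT1, was higher on all 3 probe sets, from 868 to 1416, from 619 to 1064 and from 559 to 937. Their log2 ratios were 0.71, 0.78 and 0.75. Slc2a8, the intracellular facilitator GLUT8, had a log2 ratio of 0.86 on its single probe set, from 407 to 741. GLUT1 and GLUT8 transcripts were therefore higher beyond the 2 SD limit but short of 2-fold, and GLUT3 lower by more than 2-fold. Of the 25 genes of SLC2 and SLC5, 9 were measured with a median of 0.02. Slc2a4rg-ps, counted among them but marked by its symbol as a pseudogene, went from 193 to 124, a log2 ratio of -0.64 past its limit of 0.60. Slc2a4, the insulin-responsive facilitator GLUT4, read 182 and 150 (-0.28), and Slc5a3, the inositol carrier, 424 and 431 (0.02).

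**Figure D2:**
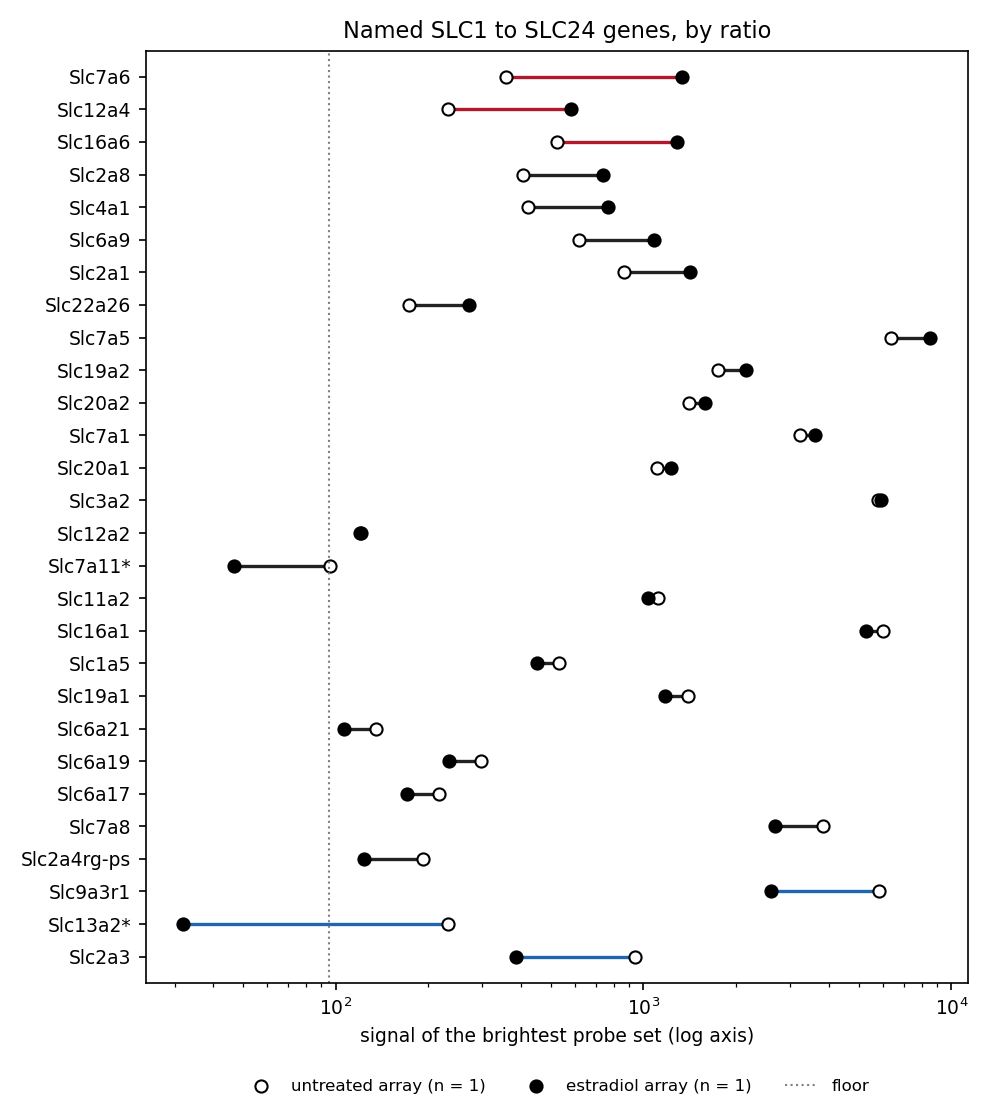
Signal of the brightest probe set on the untreated array (open circles) and the estradiol array (filled circles) for 28 named solute carrier genes, on a logarithmic axis and ordered by log2 ratio, with the floor of 95.2 as a dotted line. Red and blue lines join pairs at least 2-fold higher or lower, and an asterisk marks a gene below the floor on 1 array. Slc7a6, at the top, runs from 357 to 1332, and Slc2a3, at the bottom, from 938 to 384.

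Slc9a3r1 was lower by more than 2-fold on every probe set it has. It encodes NHERF1, a PDZ scaffold that ties sodium-proton exchangers and other membrane proteins to ezrin, and it is not itself a carrier. Its 3 probe sets went from 5838 to 2590, from 5420 to 2083 and from 3196 to 1247, with log2 ratios of -1.17, -1.38 and -1.36. The brightest gave 2.25-fold lower, and the ratio stayed past 2-fold in all 9 alternatives of scaling, floor and probe set choice. Ezr, the ezrin gene, read 3994 and 4484, a log2 ratio of 0.17, with 0.60 on its other probe set. Slc9a3r2, which encodes the related scaffold NHERF2, read 197 and 208 (log2 ratio 0.08), with -0.13 and 0.47 on other measured probe sets. The measured exchangers of that family, Slc9a3 and Slc9a8, were dim at 146 and 168 and at 259 and 305, with log2 ratios of 0.20 and 0.24.

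Slc4a1, which encodes band 3, read 422 and 769, a log2 ratio of 0.86, and its second measured probe set went from 314 to 726, a log2 ratio of 1.21. The other Slc4a1 probe set was below the floor on both arrays. The gene was thus higher on both measured probe sets, 1 of them past 2-fold, and the median over both was 1.04. The probe set past 2-fold carries a suffix that marks probes shared with other transcripts, and the brighter one does not. Slc4a2, the anion exchanger AE2 of most tissues, read 430 and 359, a log2 ratio of -0.26. Slc4a11 and Slc4a8 had log2 ratios of 0.23 and -0.13, and Slc4a4, a sodium bicarbonate cotransporter gene, went from 63.3, below the floor, to 168, a bound of 0.82. Slc4a4 had 5 probe sets, of which 3 were below the floor on both arrays and 1 gave a bound of -0.04, so they do not point one way.

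None of the 10 measured genes for carriers of divalent metals, phosphate and vitamins passed the 2 SD limit for its signal on its brightest probe set. The largest of their ratios was that of Slc19a3, a thiamine carrier near the floor, at 0.51 (104 and 149). Slc11a2, the iron carrier DMT1, read 1112 and 1038 (log2 ratio -0.10), and its 4 probe sets ran from -0.17 to 0.18. Slc20a1 and Slc20a2, the phosphate carriers PiT1 and PiT2, read 1109 and 1229 (0.15) and 1404 and 1589 (0.18). The other probe sets of Slc20a1 gave -0.19 and 0.21, so its direction depends on the probe set, and that of Slc20a2 gave 0.42. Slc19a1, the reduced folate carrier, went from 1396 to 1175 (log2 ratio -0.25), and its dimmer measured probe set gave -0.44. Slc19a2, another thiamine carrier, read 1749 and 2147 (0.30), with -0.01 and -0.25 on its others. Slc23a2, an ascorbate carrier gene, had 0.05 on its brightest probe set and -0.68 on the other.

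In the remaining classes Slc17a5 and Slc22a26 alone passed the 2 SD limit, both narrowly. Slc17a5, the lysosomal sialic acid exporter sialin, read 515 and 733, a log2 ratio of 0.51 at a limit of 0.50. Slc22a26, an organic anion transporter family gene, read 173 and 272, a log2 ratio of 0.65 at a limit of 0.60, with its other probe set below the floor. Its ratio was under 0.60 with a common median (0.54), quantile normalization (0.55) and loess (0.55). Slc22a5, the carnitine carrier OCTN2, went from 523 to 468 (log2 ratio -0.16), while its dimmer probe set gave 0.40. Slc22a4, which encodes the related OCTN1, was below the floor at 10.5 and 5.20, and so was the red cell urea carrier gene Slc14a1 at 43.1 and 32.1. The 7 measured SLC22 genes had a median of 0.26, and the 9 measured genes of SLC13 and SLC16 a median of 0.11.

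**Figure D3:**
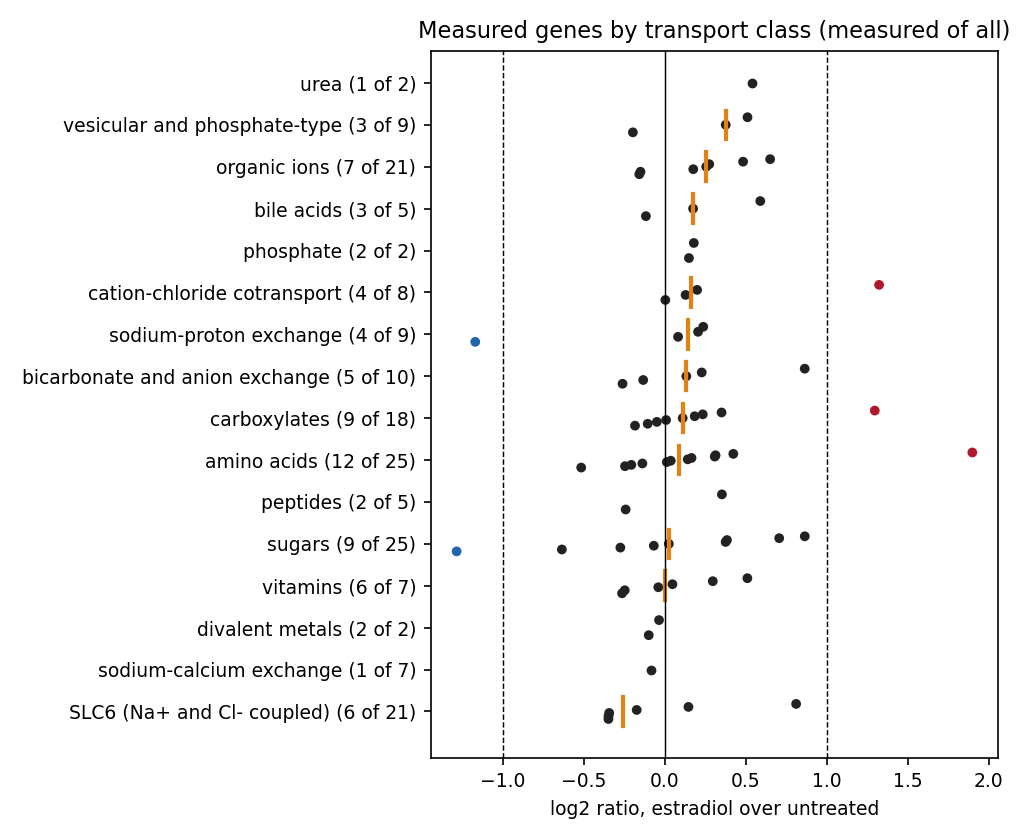
Log2 ratios, estradiol over untreated, of the 76 measured genes by transport class, with the number measured and the number in the class in brackets. Each point is a gene, orange bars are class medians where at least 3 genes were measured, dashed lines mark 2-fold, and red and blue points lie past it. Genes are placed by symbol, so some that are not carriers are included. The points past 2-fold lie in 5 different classes, that of sodium-proton exchange only through Slc9a3r1, which is not a carrier. The amino acid class runs from -0.52 to 1.90.

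Several probe sets per gene give the one internal check these arrays allow. Of the 176 genes 23 had several measured probe sets, and 11 of these had all of them on the same side of 0. The widest spread within a gene was 0.73 on the log2 scale, that of Slc7a4. Slc7a6 and Slc9a3r1 were past 2-fold on each measured probe set, and Slc2a3, Slc4a1 and Slc6a9 on 1 of 2. Slc2a1 had the closest agreement of the genes past the 2 SD limit, with 3 values within 0.71 to 0.78.

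**Figure D4:**
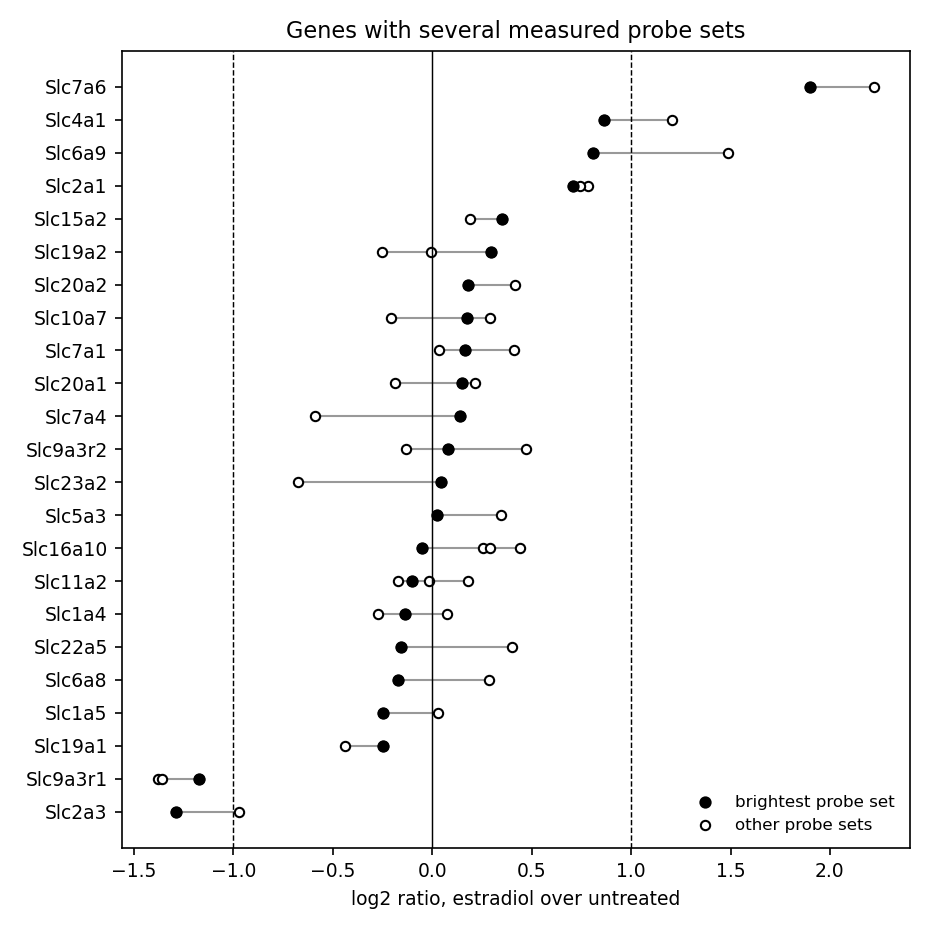
Log2 ratios of every measured probe set for the 23 solute carrier genes with more than 1, the brightest filled and the others open, with dashed lines at 2-fold. The genes at the top (Slc7a6, Slc4a1, Slc6a9, Slc2a1) and bottom (Slc9a3r1, Slc2a3) have all points on 1 side of 0, and most genes in between straddle 0.

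Genes that work with these carriers were read from 3 lists. Among partners and regulators of carriers 12 of 17 on the array were measured, none past 2-fold on its brightest probe set, with a median of 0.01 (over the whole array the shares past 2-fold were 2.04% upward and 1.1% downward). Ank1, the ankyrin that anchors band 3, read 1146 and 1947 (log2 ratio 0.76, with 0.76 to 1.15 over its 4 measured probe sets). Atp1b2, a sodium pump subunit gene, read 457 and 770 (0.75, with 2.12 on its other probe set). Ank1, Atp1b2 and Sgk1, at 0.51, were the 3 of 12 past the 2 SD limit upward, and none was past it downward. Over all genes these shares were 8.62% and 7.23%. Nedd4, a ubiquitin ligase gene, and Oxsr1, a kinase that acts on SLC12 cotransporters, had the lowest ratios at -0.25 and -0.24, and Bsg, the chaperone of MCT1, had -0.12. Of 17 measured genes of the amino acid response driven by ATF4, 1 was at least 2-fold higher, none was lower and the median was 0.13. With so few genes listed, counts of 0 or 1 do not show a departure from the share of all genes. That gene was Ddit3, the stress factor CHOP, at 797 and 3346 (log2 ratio 2.07, with 0.85 on its other measured probe set), while Asns, asparagine synthetase and a classical member, read 11744 and 11414 (-0.04). At the 2 SD limit 3 of the 17 were higher and none was lower, where 8.62% and 7.23% of all genes were. They were Ddit3, Atf5 at 0.81 and Trib3 at 0.81, with 1.02 on the other Trib3 probe set. Ddit4 had -0.09, while Phgdh had -0.14 on its brightest probe set and 0.95 on the other. Of 18 measured genes of amino acid sensing by mTORC1 none passed 2-fold, the median was 0.01, and the ends were Lamtor3 at 0.46 and Rragc at 0.40 against Sesn1 at -0.52 and Lamtor2 at -0.30.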

How the data were processed

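Total RNA from 2 samples of G1E cells was labelled with biotin and hybridised to 1 array each. The authors used Affymetrix GCOS, per the submitters' processing notes, which name no version. The deposited values are linear signal intensities per probe set, 45101 on each array, with a 2% trimmed mean of 500.0 in both columns. Both arrays were rescaled to a common 2% trimmed mean of the 45037 probe sets that are not controls, with the floor taken as the 50th percentile of their signals. A gene took its brightest probe set among those with its symbol alone. All 176 genes matched the RefSeq table for GRCm38.p6 by Entrez identifier, with no symbol changed. RefSeq lists 19 further symbols of the pattern with no probe set of their own. The 4 probe sets with several symbols of which at least 1 fits the pattern were left out, and all were below the floor. Ratios were counted at 2-fold, with no test, since each group is 1 array.

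Named genes are those past 2-fold or with a bound of 2-fold, the 8 brightest, the next 5 in each direction, genes whose probe sets differ by over 1 on the log2 scale (0 were found) and a preset set, part of which is not reported here. Others are given as examples of a class. The genes and lists were chosen with earlier results of these data known. Alternatives covered scaling, floor, probe set choice and threshold. The steps were tested on simulated data. Software was pandas 2.3.3 and numpy 2.4.6 under Python 3.11.15, with statsmodels 0.14.6 for loess and matplotlib 3.10.9 for plots.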

Additional observations from a re-analysis of the deposited data

Results flagged for a closer look

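The dimmer probe set of Slc7a6os is outside the gene comparison, which used the brighter one. It went from 76.6, below the floor, on the untreated array to 295 on the estradiol array, a bound of 1.63 on the log2 scale. The brighter probe set had 0.31.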

How the results depend on the processing

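No paired analysis was possible because each group holds 1 array. Quantile normalization, loess, a common median and the deposited scale left the same 5 solute carrier genes past 2-fold, and the common median moved all genes by -0.11 on the log2 scale, which made 160 of them higher and 161 lower. The floor had the largest effect on counts among choices other than the threshold. At the 30th percentile 6 solute carrier genes were higher and 6 lower, with 11 probe sets higher and 10 lower, and 439 and 288 of all genes. At the 70th percentile Slc12a4 had only a bound, 2 of the probe sets were higher, 0 genes kept a bound of 2-fold, and 130 and 65 of all genes were higher and lower. With no floor and 16 added to each signal 7 genes were higher and 5 lower, with 20 and 12 probe sets, and 679 and 512 of all genes, which is 6.82% of the solute carrier genes against 6.55% of all. At the 30th and 70th percentile these shares were 9.76% against 5.4% and 11.8% against 2.74%. The median over probe sets gave 5 higher genes, adding Slc4a1 and Slc6a9, and a share of 9.21% against 2.93% of all genes. Taking probe sets without a shared-probe suffix first gave 1 lower gene, with 5.48% against 3.15% past 2-fold either way. At 1.5-fold 9 genes were higher, and Slc2a3, Slc2a4rg-ps and Slc9a3r1 were lower. That setting had 14 probe sets higher and 8 lower and 728 and 497 of all genes. Shares past the threshold were 15.8% against 12.0% at 1.5-fold and 1.32% against 0.684% at 3-fold. At 3-fold 1 gene, Slc7a6, was higher and 0 were lower, with 2 probe sets higher and 0 lower, and 49 and 21 of all genes. The 2 SD limit, chosen after seeing the data, gave 10 higher and 4 lower, and 883 and 740 of all genes. Of 243 values of named genes under the alternatives of scaling, floor and probe set, 8 moved by 0.25 or more on the log2 scale, among them Slc7a11, which had -1.03 with the lower floor. Dim genes, 26 of 76 measured, limit what these arrays show.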
